A study of Mus musculus with 3 samples.

Results

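The endothelin and apelin systems were followed through single cells of the young mouse long bone by the 8 genes Edn1, Edn3, Ednra, Ednrb, Ece1, Ece2, Apln and Aplnr, chosen by their symbols among the 55422 genes of the count matrices. Each system is a short relay between neighbouring cells. A ligand is secreted as a precursor, is cut to its active form, and acts on receptors coupled to G proteins. Edn1 and Edn3 encode endothelin precursors, Ece1 and Ece2 the membrane proteases that cut the intermediate peptide, and Ednra and Ednrb the receptors. Endothelin-1 made by endothelium is best known for contracting vascular smooth muscle through Ednra, whereas Ednrb on endothelium takes up endothelin and signals to nitric oxide synthesis. Apln encodes apelin, a peptide made at growing vessel tips, and Aplnr its receptor, which is abundant in capillary and venous endothelium.

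Droplet-based single-cell RNA sequencing had been run on 3 libraries from untreated male mice aged 3 weeks. Metaphyseal replicates 1 and 2 came from C57BL/6J mice, in which cells of the long bone metaphysis had been depleted of lineage-positive, CD45+ and CD117+ cells. Pdgfra-GFP replicate 1 came from mice with 1 copy of a nuclear H2B-GFP knock-in at the Pdgfra locus, in which GFP+ cells had been sorted from the metaphysis and epiphysis of femur and tibia. Reporter fluorescence in that library marks Pdgfra-expressing cells and their recent progeny. The sources do not say how many mice were pooled or whether the metaphyseal replicates came from separate mice. P-values therefore measure only how far differences between populations vary from library to library, which may be technical. The libraries held 25243314, 22082735 and 91747759 unique molecular identifiers (UMIs, each 1 captured transcript molecule) in that order, of which 2389, 2011 and 11319 barcodes were kept as cells. Values for the 3 libraries are always given below in this order.

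Cells were assigned to populations by counting markers, none of which was one of the 8 genes. Arterial-like endothelium (aEC, Gja4, Gja5, Sox17 and others) held 71, 56 and 93 cells, metaphyseal-like capillary endothelium (mpEC, Piezo2, Ramp3, Esm1 and others) held 450, 362 and 82, and sinusoid-like endothelium (bmEC, Stab2, Mrc1, Stab1 and others) held 446, 356 and 70. Mural-like cells (Rgs5, Kcnj8, Higd1b, Myh11 and others) numbered 15, 14 and 52 and septoclast-like cells (SC, Sstr2, Otos, Mmp9 and others) 21, 14 and 242. Metaphyseal stromal-like cells (mpMSC) numbered 73, 70 and 1478, diaphyseal stromal-like cells (dpMSC) 656, 618 and 3697, and osteoblast-like cells (OB) 148, 121 and 1427. Mural-like cells counted a median of 4 of the 7 mural markers per cell, and each of the 7 had UMIs among these cells. The 7 were at a summed 11936 to 17723 CPM (UMIs of a gene scaled to a fixed total of all UMIs in the summed cells, the counts-per-1e6 scale), against 247.5 to 336 CPM for the 8 endothelial markers. Mural-like cells also held mpMSC markers at a summed 1179 to 1712 CPM, against 3126 to 4587 in mpMSC-like cells. Their SC markers were at 67.5 to 1613 and their dpMSC markers at 1226 to 1786 CPM. The bmEC-like cells counted a median of 2 of the 7 mural markers as well, at a summed 979 to 1101 CPM with 3 markers at 0 in every library. The aEC-like cells counted a median of 2 of the 6 mpEC markers, at a summed 1337 to 1505 CPM against 2125 to 2459 in mpEC-like cells. Their dpMSC markers were at 1815 to 3086 CPM, against 328 to 575 in mpEC-like cells. The mpEC-like cells held aEC markers at a summed 177 to 481 CPM, against 2662 to 3556 in aEC-like cells. The 19 barcodes that libraries shared fell in the same population in 1 case.

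Endothelial cells are not a class that a sort on Pdgfra aims at, and the reporter differed between them in the Pdgfra-GFP library. There H2B-GFP transcripts were at 459 CPM and in 34.4% of aEC-like cells, at 12.5 and in 6.10% of mpEC-like cells, and at 2.60 and in 1.43% of bmEC-like cells. SC-like cells had the reporter at 435 CPM and in 37.2%, mpMSC-like cells at 163 CPM and in 35.6%, and chondrocyte-like cells at 12.9 CPM and in 9.06%. The aEC-like cells were thus near the SC-like cells, while few mpEC-like and bmEC-like cells had a reporter transcript. Mural-like cells had the reporter at 1016 CPM and in 63.5% of cells, with 2 UMIs of Pdgfra. Pdgfra itself had 1, 0 and 3 UMIs in the 3 endothelial populations. How these cells entered the library was not tested. Endothelial levels are given for each library, and a call that is lost without the Pdgfra-GFP library is named.

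Levels are in CPM, given as mean ± SD over libraries, with no correction for gene length, which 3' counting does not need. A count of 0 in a sum still allows up to 3 UMIs, and this floor and all intervals cover counting error only. Barcodes too small to be cells, which collect free RNA, held Aplnr at 295, 292 and 6.80 CPM, Ece1 at 120.2, 93.8 and 22.4 and Ednrb at 39.7, 35.0 and 0.654. They held Apln at 26.9, 16.7 and 1.18 CPM, Ednra at 21.2, 22.3 and 16.7 and Edn1 at 4.41, 7.95 and 2.88. The levels of Edn1, Apln and Ednrb in bmEC-like cells of the metaphyseal libraries, given below, were near or below these values. In the same libraries Apln and Aplnr in aEC-like cells and Ednra in OB-like cells were below them. So was Ece1 in SC-like, mural-like, dpMSC-like, mpMSC-like and OB-like cells. Whether those levels exceed carried-over RNA was not tested. Erythroid cells, which should lack these genes, had no UMI of Edn1, Ednrb or Aplnr in any library, at median depths of 11519, 11488 and 8801 UMIs per cell. They numbered only 11, 7 and 69 cells, so these zeros still allow up to 21.8, 34.0 and 4.36 CPM. The sum of 7 cells is below the minimum of 10 cells used for the tests. Differences between populations were tested on the summed counts with edgeR's quasi-likelihood test, library entering as a block and p-values adjusted by Benjamini-Hochberg over 12686 genes. Edn3 failed the filter on low counts, and the other 7 genes passed it. The filter uses all populations together, so a gene that is high in 1 population alone can pass through that population.

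In build GRCm38 (Gencode annotation), Edn1 spans chr13:42301476-42307990 on the plus strand with up to 5 exons, Ednrb chr14:103814625-103844402 on the minus strand with up to 8, and Apln chrX:48025146-48034853 on the minus strand with up to 3. Ednra lies at chr8:77663031-77724464 (minus), Ece1 at chr4:137862237-137965229 (plus), Ece2 at chr16:20629828-20646485 (plus), Edn3 at chr2:174760619-174784042 (plus) and Aplnr at chr2:85136225-85139923 (plus). Ece2 overlaps the same-strand gene Gm49333, which had 0 UMIs, so reads of the shared part cannot be told apart and Ece2 is uncertain. Edn1, Ednra and Ece1 overlap genes on the opposite strand, with 0, 51 and 62 UMIs in cells, and the counting setting for strand is not given in the sources used here.

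Promoter sequences were present in the RefSeq set (GRCm38.p6) for 7 of the 8 genes, all but Aplnr. The 250 bases before the start are shown for Edn1, Ednrb and Apln, the 3 genes in the set that were each concentrated in 1 endothelial population, 5′ to 3′ on the gene's strand. For Ednrb the RefSeq start lies inside the Gencode span given above, so its window does too. Capitals mark a searched motif.
Edn1 (chr13:42301226-42301475, plus): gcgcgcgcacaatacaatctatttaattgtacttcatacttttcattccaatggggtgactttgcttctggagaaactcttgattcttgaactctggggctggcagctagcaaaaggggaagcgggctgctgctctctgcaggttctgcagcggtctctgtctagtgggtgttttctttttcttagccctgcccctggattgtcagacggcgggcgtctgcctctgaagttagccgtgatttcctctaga
Ednrb (chr14:103843702-103843951, minus): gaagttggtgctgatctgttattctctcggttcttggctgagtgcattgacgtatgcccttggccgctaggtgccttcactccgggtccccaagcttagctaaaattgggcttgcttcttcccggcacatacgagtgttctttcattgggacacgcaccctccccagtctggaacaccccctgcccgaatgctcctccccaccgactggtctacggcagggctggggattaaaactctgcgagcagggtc
Apln (chrX:48034854-48035103, minus): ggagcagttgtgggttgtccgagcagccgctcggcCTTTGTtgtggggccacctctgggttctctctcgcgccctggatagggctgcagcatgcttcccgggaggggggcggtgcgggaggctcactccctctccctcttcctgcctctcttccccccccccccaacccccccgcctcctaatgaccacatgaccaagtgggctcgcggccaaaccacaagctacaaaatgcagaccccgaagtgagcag
The first transcribed bases of Edn1 hold a GATA match and a hypoxia-response core match, both on the opposite strand.
Edn1 (chr13:42301479-42301503, plus): gggtcTTATCTctggctgCACGTtg
Motifs were searched on both strands from 250 bases before to 50 bases after the start. Of 32851 promoters, 11.2% held the GATA letters AGATAA, 19.6% the hypoxia-response core ACGTG, 18.7% the SOX letters ACAAAG, 5.20% the AP-1 letters TGACTCA, 23.8% the ETS letters GGAAGT and 1.63% a CArG box. The SOX match in Apln lies 215 bases before the start. The Ednrb window held none of the 6 motifs, which says only that these letters are not in this window. The letters were picked with these sequences in view, and a match is a description of letters, not of a bound site.

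Expression of the 2 systems was divided between cell classes. All endothelial cells together made up 47.0, 44.1 and 2.66% of the cells of the 3 libraries. They held 99.1, 86.9 and 88.2% of the Edn1 UMIs (214, 168 and 169 in all cells) and 98.6, 98.0 and 77.3% of the Ednrb UMIs (798, 558 and 110). Of Apln (404, 269 and 152 UMIs) they held 96.0, 95.9 and 60.5%, and of Aplnr (5673, 4598 and 619) 98.0, 97.7 and 87.7%. Their share of the Ece1 UMIs (1950, 1597 and 2295) was 78.8, 74.5 and 13.4%. These shares depend on how many endothelial cells a library holds. Ednra lay elsewhere, with 7 of its 2835 UMIs in the 3 named endothelial populations and 73.5, 75.2 and 51.8% in dpMSC-like cells. Edn3 had 11 UMIs and Ece2 97 in all cells. Fewer cells of a type and a lower level are separate quantities here, since cells were counted singly. A level is a share of the UMIs of the summed cells and not an amount of RNA per cell.

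**Figure D1:**
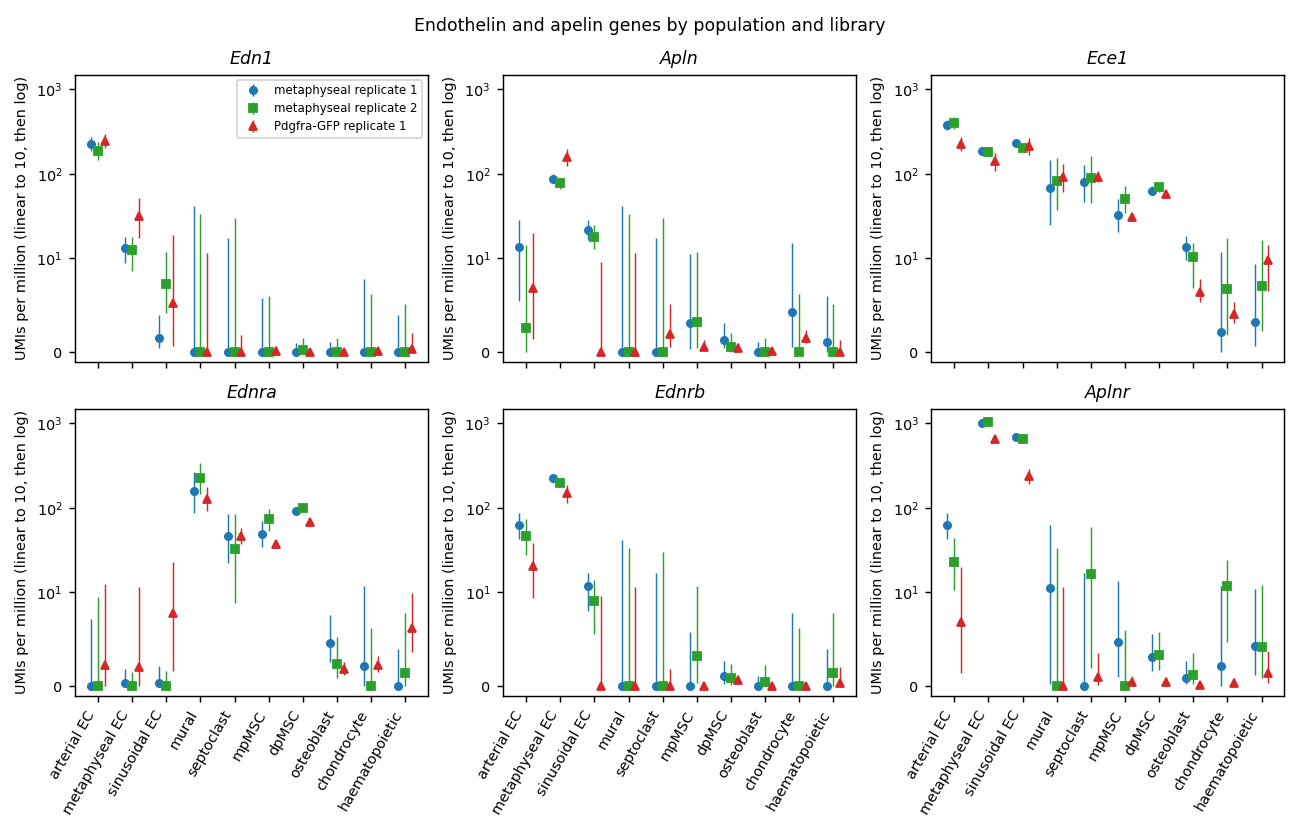
Level of each gene (CPM, on an axis linear to 10 and logarithmic above) in each marker-gated population, with 1 point per library and bars for the exact Poisson 95% interval. Edn1 is highest in arterial-like endothelium at 188 to 246 CPM, Ednrb and Apln in metaphyseal-like endothelium, and Ednra in mural-like cells at 129 to 228 CPM.

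Edn1, the precursor of endothelin-1, was an arterial transcript in these libraries. It was counted at 226, 188 and 246 CPM in aEC-like cells, at 13.3, 12.7 and 31.4 in mpEC-like cells and at 1.53, 7.25 and 5.19 in bmEC-like cells. The arterial range lay above both others in every library, and the mpEC-like range above the bmEC-like range. Means were 219.8 ± 29.4, 19.1 ± 10.6 and 4.66 ± 2.90 CPM (SD, n = 3 libraries). The aEC-like cells, 2.97, 2.78 and 0.822% of the cells, carried 54.2, 43.5 and 63.9% of the Edn1 UMIs. Outside the endothelium Edn1 was at 15.7 CPM in fibroblast-like cells, found in the Pdgfra-GFP library alone, where 1 cell held 7 of 14 UMIs. It had 0 UMIs in mural-like, SC-like and OB-like cells of every library and 1 UMI in mpMSC-like cells.

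Within arterial-like cells Edn1 was uneven. No UMI was found in 47.9, 50 and 61.3% of the cells, and 9.86, 5.36 and 7.53% had 5 or more, up to 14 in 1 cell. The tenth of cells with most Edn1 held 49.1, 50.7 and 55.6% of its UMIs. The share of cells with an Edn1 UMI was 52.1, 50 and 38.7% at median depths of 6453, 6662.5 and 3757 UMIs. With each cell thinned to 2000 UMIs, which left out 10 cells of the Pdgfra-GFP library, the shares were 26.8, 25 and 28.9%. The thinned shares lay within each other's counting intervals.

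**Figure D2:**
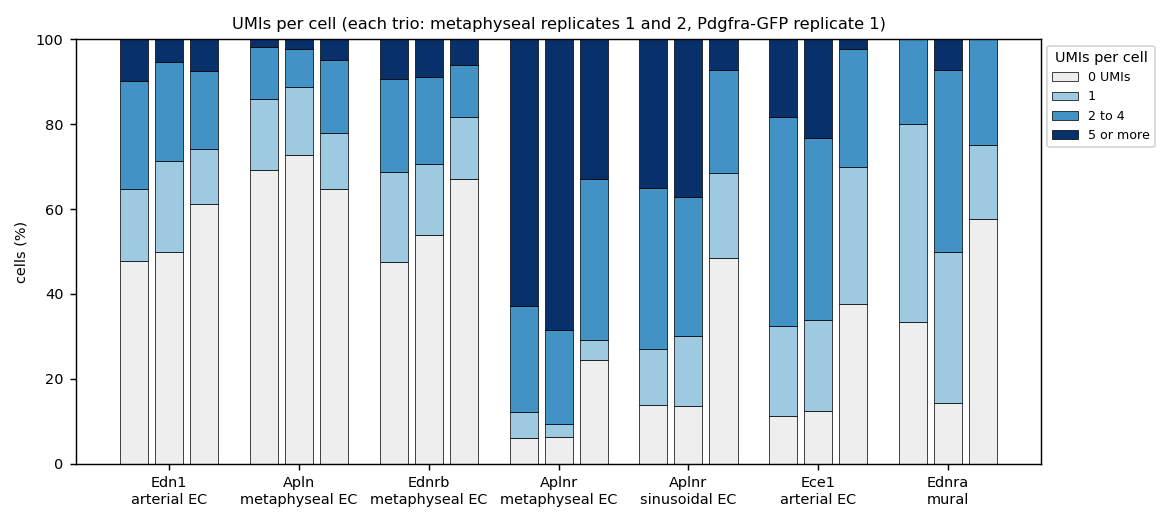
Share of cells (percent) with 0, 1, 2 to 4 and 5 or more UMIs of a gene in the population where it was followed, by library. Aplnr reached 5 or more UMIs in 62.9, 68.5 and 32.9% of metaphyseal-like endothelial cells, whereas Edn1 did so in 5.36 to 9.86% of arterial-like cells.

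Apln, the apelin precursor, was carried mainly by metaphyseal-like capillaries. Its level in mpEC-like cells was 87.6, 77.5 and 157 CPM, in bmEC-like cells 21.8, 18.1 and 0, and in aEC-like cells 13.6, 2.57 and 6.82. The mpEC-like range did not overlap either of the others, while the bmEC-like and aEC-like ranges overlapped. The mpEC-like mean was 107.3 ± 43.2 CPM (SD, n = 3), and these cells held 65.3, 70.3 and 49.3% of the Apln UMIs. The Pdgfra-GFP library was the highest of the 3 in mpEC-like cells and had 0 UMIs in its 70 bmEC-like cells, which allows up to 7.79 CPM. A UMI was found in 30.7, 27.3 and 35.4% of mpEC-like cells, or 13.8, 15.2 and 16.5% after thinning. Erythroid cells held 1 Apln UMI, in the Pdgfra-GFP library. Endothelial cells with no subtype call, 157, 112 and 56 cells, had 67.4, 43.7 and 47.5 CPM.

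Edn3, whose peptide acts on Ednrb in neural crest cells, was barely counted. Its 11 UMIs comprised 7 in chondrocyte-like cells (1, 2 and 4 by library), 2 in mpEC-like cells, 1 in mpMSC-like cells and 1 in cells of no population. At this depth no difference between populations was detectable.

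Ednrb was the endothelin receptor of the metaphyseal-like capillaries. Levels were 227, 199 and 148 CPM in mpEC-like cells, 62.4, 46.3 and 20.5 in aEC-like cells and 11.9, 9.07 and 0 in bmEC-like cells. The ranges of the 3 endothelial populations did not overlap, and the Pdgfra-GFP library was the lowest in each. Means were 191.3 ± 39.7, 43.0 ± 21.1 and 6.97 ± 6.20 CPM (SD, n = 3), and mpEC-like cells, 18.8, 18.0 and 0.724% of the cells, held 85.7, 86.7 and 64.5% of the Ednrb UMIs. A UMI was found in 52.4, 46.1 and 32.9% of mpEC-like cells and, after thinning, in 30.2, 26.2 and 16.5%. It had 0 UMIs in mural-like, SC-like and chondrocyte-like cells and 16 in all dpMSC-like cells.

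Ednrb was as uneven among mpEC-like cells as Edn1 among arterial-like cells. The tenth of cells with most Ednrb held 49.4, 52.1 and 60.6% of its UMIs, and single cells reached 19, 27 and 7. In aEC-like cells 77.5, 78.6 and 92.5% had none. After thinning, the cells with an Edn1 UMI and those with an Ednrb UMI coincided in 0, 0 and 1 aEC-like cells, out of 19, 14 and 24 with Edn1 and 6, 2 and 3 with Ednrb. These counts are too few to compare.

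Aplnr, the apelin receptor, was the most abundant of the 8 genes and the receptor that metaphyseal-like and sinusoid-like cells both carried. It was at 1023, 1052 and 659 CPM in mpEC-like cells and at 701, 653 and 239 in bmEC-like cells. In aEC-like cells it was at 62.4, 23.1 and 6.82. The mpEC-like and bmEC-like ranges overlapped across libraries, though mpEC-like cells were higher in 3 of 3, and both lay above the aEC-like range. Means were 911 ± 219, 531 ± 254 and 30.8 ± 28.6 CPM (SD, n = 3). The Pdgfra-GFP library was lowest in every endothelial population, and its free RNA level of Aplnr was also lowest. The part of free RNA in the difference between libraries was not tested.

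Detection of Aplnr was nearly complete in mpEC-like cells of the metaphyseal libraries, with a UMI in 94 and 93.6% of cells against 75.6% in the Pdgfra-GFP library. In bmEC-like cells the shares were 86.1, 86.5 and 51.4%. After thinning they were 79.8, 81.2 and 62.0% in mpEC-like and 64.6, 61.5 and 30% in bmEC-like cells. In aEC-like cells 88.7, 92.9 and 97.8% had no UMI, and in metaphyseal replicate 1 a single cell held 17 of the 32 UMIs. The arterial value of that library therefore rests in large part on 1 cell.

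**Figure D3:**
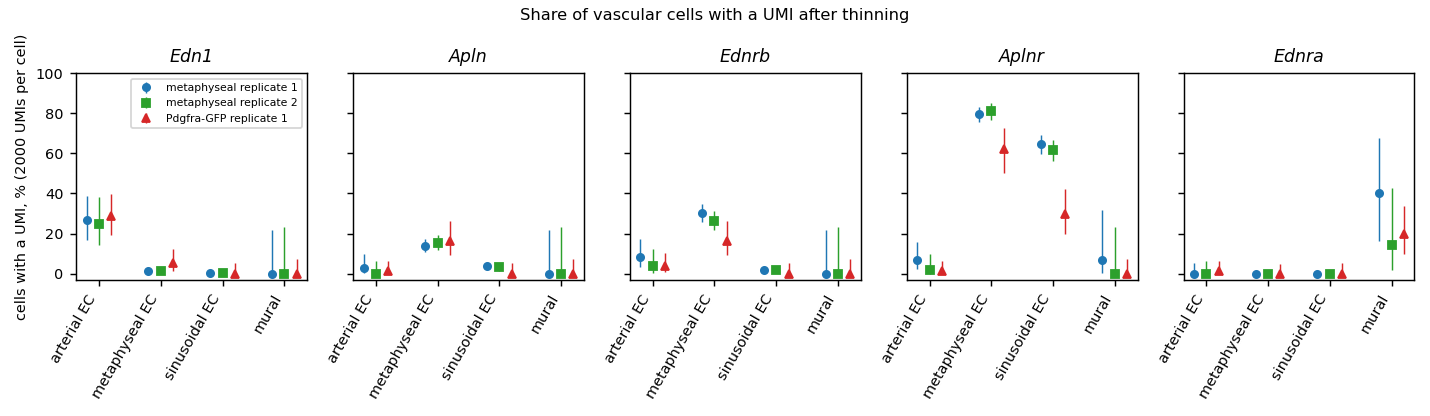
Share of cells (percent) with at least 1 UMI of a gene after each cell was thinned to 2000 UMIs, by population and library, with exact binomial intervals. Aplnr was found in 62.0 to 81.2% of metaphyseal-like and 30 to 64.6% of sinusoid-like endothelial cells, and Edn1 in 25 to 28.9% of arterial-like cells.

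The apelin ligand and its receptor were counted in the same mpEC-like cells. After thinning, Aplnr was found in 82.3, 76.4 and 61.5% of the mpEC-like cells with an Apln UMI and in 79.4, 82.1 and 62.1% of those without. The shares differed by little and not in the same direction across libraries. For Ednrb, mpEC-like cells with an Apln UMI had it in 38.7, 16.4 and 23.1% and those without in 28.9, 28.0 and 15.2%, again with no common direction.

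Ednra, the receptor through which endothelin-1 contracts smooth muscle, was nearly absent from endothelium and highest in mural-like cells. It was at 157.5, 228 and 129 CPM in mural-like cells (14, 25 and 41 UMIs), at 91.2, 101.1 and 68.9 in dpMSC-like cells and at 49.8, 73.2 and 37.4 in mpMSC-like cells. SC-like cells had 46.6, 32.7 and 46.7 CPM. The mural-like range lay above all others, while the dpMSC-like, mpMSC-like and SC-like ranges each overlapped the next. Means were 171.4 ± 50.8, 87.0 ± 16.5, 53.5 ± 18.2 and 42.0 ± 8.03 CPM (SD, n = 3). OB-like cells were far lower at 4.61, 2.41 and 1.83 CPM. The 3 named endothelial populations held 1, 2 and 4 UMIs of Ednra in all libraries together.

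Mural-like cells had an Ednra UMI in 66.7, 85.7 and 42.3% of cells and, after thinning, in 40, 14.3 and 20%. The order of the metaphyseal replicates reversed with thinning, with 15 and 14 cells behind these shares. Single mural-like cells held at most 5 UMIs. In dpMSC-like cells the thinned shares were 14.6, 17.0 and 13.8%. Erythroid cells had 2 Ednra UMIs, both in the Pdgfra-GFP library.

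**Figure D4:**
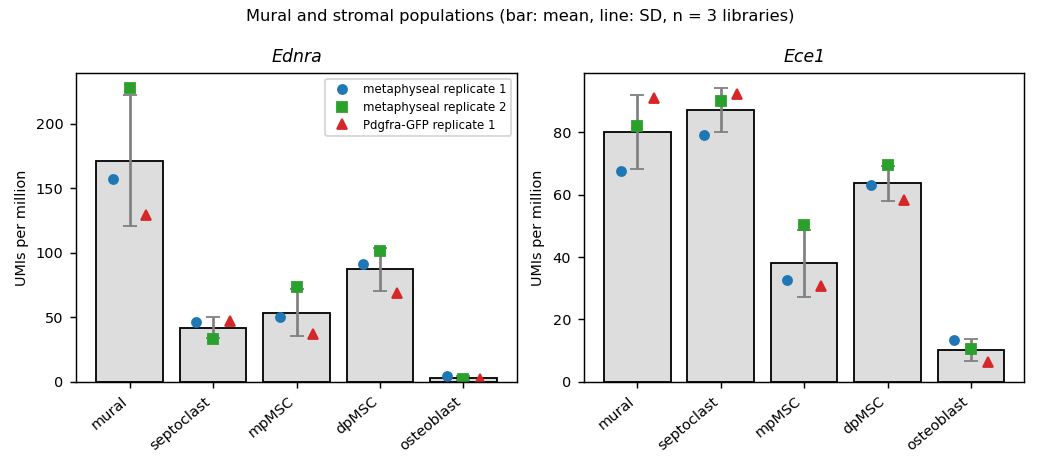
Level of Ednra and Ece1 (CPM) in mural-like, septoclast-like, stromal-like and osteoblast-like cells, with 1 point per library, bars from 0 for the mean and lines for the SD. Osteoblast-like cells are lowest for both, at 1.83 to 4.61 CPM for Ednra and 6.46 to 13.5 CPM for Ece1.

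Ece1, the main endothelin-converting protease, was the widest of the 8. Its level was 378, 399 and 227 CPM in aEC-like cells, 229, 201 and 213 in bmEC-like cells and 185, 180.1 and 140.1 in mpEC-like cells. Arterial and sinusoid-like ranges overlapped by the Pdgfra-GFP arterial value, and the mpEC-like range lay below the bmEC-like one. Outside the endothelium it was at 79.2, 90.1 and 92.4 CPM in SC-like cells and 67.5, 82.0 and 91.2 in mural-like cells. dpMSC-like cells had 63.2, 69.6 and 58.3 and mpMSC-like cells 32.7, 50.4 and 30.9. In the metaphyseal libraries these levels and those of SC-like and mural-like cells lay below the free RNA level of Ece1, given above. OB-like cells, at 13.5, 10.5 and 6.46, stood close to the 7.27, 0 and 5.81 of erythroid cells, of which 9.09, 0 and 2.90% had an Ece1 UMI after thinning. Means were 335 ± 93.5 CPM in aEC-like and 10.1 ± 3.54 in OB-like cells, with lower means of 6.69 ± 3.34 in haematopoietic and 4.32 ± 2.31 in chondrocyte-like cells (SD, n = 3).

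Ece1 was spread more evenly over cells than its substrate. Among aEC-like cells 88.7, 87.5 and 62.4% had a UMI, or 47.9, 44.6 and 42.2% after thinning. The tenth of aEC-like cells with most Ece1 held 27.3, 25.2 and 32.0% of its UMIs, against 49.1 to 55.6% for Edn1. Ece2, a related protease best known from neurons, had 22 of its 97 UMIs in chondrocyte-like cells and 18 in mpMSC-like cells. It had 1 UMI in the 3 endothelial populations together.

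Against mpEC-like cells, aEC-like cells had more of the ligand Edn1 and of the protease Ece1 and less of both endothelial receptors and of Apln. Edn1 was higher by 3.73 ± 0.26 on the log2 scale (SE, adjusted p = 3.46e-12, edgeR's quasi-likelihood test) and Ece1 by 0.94 ± 0.18 (adjusted p = 0.000173). Aplnr was lower at -5.03 ± 0.39 (adjusted p = 3.05e-09), Apln at -3.65 ± 0.49 (adjusted p = 2.18e-06) and Ednrb at -2.19 ± 0.28 (adjusted p = 9.75e-07). Each direction held in 3 of 3 libraries with cells gated by markers. The members called were 5 of the 7 tested, and 10.7% of all genes tested were called (5.19% higher, 5.53% lower). Without metaphyseal replicate 2, Ece1 was at 0.86 with an adjusted p of 0.0501. With populations taken from clusters, Aplnr, Ednrb and Apln were at -0.93, -0.77 and -0.84 and not called (adjusted p = 0.711, 0.28 and 0.335), and the clusters named arterial held 111 mpEC-like beside 210 aEC-like cells. With clusters the directions of Aplnr and Ednrb turned in the Pdgfra-GFP library, where the arterial clusters had 368 and 74.5 CPM against 241 and 16.8. The metaphyseal-like clusters held only 29 cells of that library and the arterial clusters 221.

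Against mpEC-like cells, bmEC-like cells had less Ednrb, Apln and Edn1. Ednrb was at -4.47 ± 0.30 on the log2 scale (adjusted p = 1.2e-12, edgeR's quasi-likelihood test), Apln at -2.43 ± 0.32 (adjusted p = 1.58e-06) and Edn1 at -1.77 ± 0.39 (adjusted p = 0.00167), each lower in 3 of 3 libraries. Aplnr was at -0.88 ± 0.28 with an adjusted p of 0.0387. That is 4 of 7 called, where 13.8% of all genes tested were (7.58% higher, 6.19% lower). Ece1 was at 0.36 ± 0.17 and not called (adjusted p = 0.177). The Aplnr call was lost under 9 of 12 alternatives, with adjusted p up to 0.829, including without metaphyseal replicate 1 (0.192) or without metaphyseal replicate 2 (0.0501). The Edn1 call was lost without metaphyseal replicate 1 (-1.24, adjusted p = 0.18), with the DESeq2 Wald test (adjusted p = 0.0742) and with clusters (adjusted p = 0.322).

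Between aEC-like and bmEC-like cells Edn1 had the largest fold change of the members, though the order of the fold changes was not tested. Edn1 was higher in aEC-like cells by 5.49 ± 0.32 on the log2 scale (adjusted p = 1.43e-14, edgeR's quasi-likelihood test) and Ednrb by 2.28 ± 0.39 (adjusted p = 3.5e-05), while Aplnr was at -4.15 ± 0.39 (adjusted p = 2.86e-08). Ece1 was higher by 0.58 ± 0.18 (adjusted p = 0.0156). The calls were 4 of 7, beside 19.8% of all genes tested (8.61% higher, 11.2% lower). Apln was at -1.22 ± 0.62 and not called (adjusted p = 0.184), and was lower in aEC-like cells in 2 of 3 libraries. Ece1 lost its call under 5 of 12 alternatives, among them without metaphyseal replicate 1 (0.52, adjusted p = 0.173) and without metaphyseal replicate 2 (0.38, adjusted p = 0.433). With clusters Aplnr was at -0.42 (adjusted p = 0.868). The 3 endothelial comparisons share populations with each other. In them Edn1, Ednrb, Apln and Aplnr could pass the low-count filter through the endothelial populations where they are high. The numbers of members called in these 3 comparisons are therefore no evidence about the set.

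**Figure D5:**
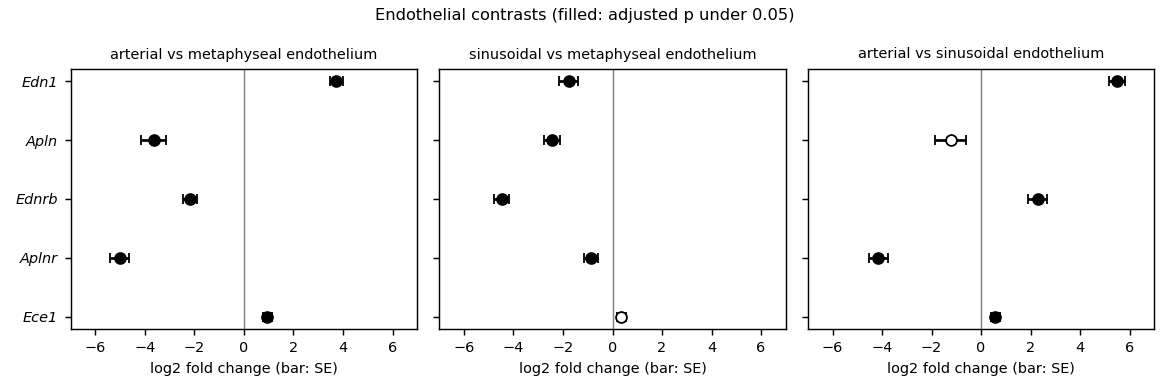
Log2 fold change (edgeR, bars are SE derived from the fold change and test statistic) of the members in the 3 comparisons between endothelial populations. Edn1 is at 3.73 and 5.49 for arterial-like against metaphyseal-like and sinusoid-like cells, and Aplnr at -5.03 and -4.15.

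Mural-like cells had the receptor Ednra and the endothelium the ligand Edn1. Endothelium here is the mean of the log2 levels of the aEC-like, mpEC-like and bmEC-like cells. Ednra had 80 UMIs in mural-like cells and 7 in the 3 endothelial populations, a log2 difference of 7.95 ± 0.56 (adjusted p = 1.1e-12, edgeR's quasi-likelihood test). Edn1, Ednrb and Apln had no UMI in mural-like cells of any library, against 405, 1349 and 636 in the 3 endothelial populations. Aplnr had 1 UMI in mural-like cells against 9373. Ece1 was lower in mural-like cells at -1.45 ± 0.23 (adjusted p = 6.19e-06). Ece2, with 3 UMIs against 1, gives no fold. All 7 genes tested passed the threshold, beside 22.1% of all genes tested (11.2% higher, 10.9% lower), though the Ece2 call rests on those 4 UMIs. Edn1, Ednrb, Apln and Aplnr, nearly uncounted in mural-like cells, could pass the low-count filter through the endothelium. The number called is therefore no evidence about the 7 genes as a set. Edn1 was not called without the Pdgfra-GFP library (adjusted p = 0.0764), nor Apln without metaphyseal replicate 1 (0.0792), without metaphyseal replicate 2 (0.0543) or with sums of at least 20 cells (0.0979).

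Against mpMSC-like cells, the endothelium had more Aplnr, Edn1, Ednrb, Apln and Ece1 and less Ednra. Aplnr was at 7.55 ± 0.52 on the log2 scale (adjusted p = 2.38e-11, edgeR's quasi-likelihood test), Apln at 4.69 ± 0.63 and Ece1 at 2.64 ± 0.18, and Ednra at -6.29 ± 0.48 (adjusted p = 1.79e-12). Over all libraries together Edn1 had 405 UMIs against 1 and Ednrb 1349 against 2. Ece2 had 1 UMI against 18, and its call was lost without metaphyseal replicate 1 (adjusted p = 0.05 as rounded). All 7 were called, where 44.7% of all genes tested were (20.6% higher, 24.1% lower). Apln and Aplnr had 9 and 7 UMIs in mpMSC-like cells, so they, Edn1 and Ednrb could pass the low-count filter through the endothelium. The number called is again no evidence about the set.

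Among stromal and mural-like cells, Ednra and Ece1 were the members with enough UMIs to compare. Mural-like cells exceeded mpMSC-like cells in Ednra by 1.66 ± 0.36 (adjusted p = 0.00179, edgeR's quasi-likelihood test) and in Ece1 by 1.18 ± 0.30 (adjusted p = 0.00525), 2 calls beside 10.2% of all genes tested (5.19% higher), each higher in 3 of 3 libraries. The Ednra call was lost with the DESeq2 Wald test (1.65, adjusted p = 0.232) and with sums of at least 20 cells, which keep mural-like cells of the Pdgfra-GFP library alone (1.57, adjusted p = 0.0965). The Ece1 call was lost without the Pdgfra-GFP library (0.68, adjusted p = 0.495). The part of the stromal markers that mural-like cells carried, given above, in these differences was not tested.

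In SC-like cells Ece1 was higher than in mpMSC-like cells by 1.36 ± 0.23 (adjusted p = 8.56e-05, edgeR's quasi-likelihood test), in 3 of 3 libraries. It was the 1 member called, beside 5.84% of all genes tested (2.92% higher and 2.92% lower). Without the Pdgfra-GFP library, which held 242 of the 277 SC-like cells, Ece1 was at 0.93 with an adjusted p of 0.259. Ednra was at -0.02 ± 0.36 (adjusted p = 1), with SC-like cells higher in 1 of 3 libraries.

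OB-like cells had less Ednra, at -3.31 ± 0.37 (adjusted p = 1.34e-08, edgeR's quasi-likelihood test), and less Ece1, at -1.09 ± 0.22 (adjusted p = 0.000121), than mpMSC-like cells, 2 calls beside 38.9% of all genes tested (19.1% lower). These log2 changes are scaled for composition (TMM). The unscaled means were 2.95 against 53.5 CPM for Ednra and 10.1 against 38.0 CPM for Ece1, a wider gap than the scaled changes give. Median depths were 22443.5, 20800 and 12062 UMIs in OB-like and 8276, 7935.5 and 5836 in mpMSC-like cells. The levels are shares of these UMIs, and molecules per cell were not compared. In dpMSC-like cells Ece1 was at 0.78 ± 0.20 (adjusted p = 0.00257) and Ednra at 0.77 ± 0.27 (adjusted p = 0.0369) against mpMSC-like cells. Ece2, with 6 UMIs against 18, was the last of 3 calls there, where 23.2% of all genes tested were called (11.5% higher, 11.7% lower). Ednra was not called without metaphyseal replicate 1 (adjusted p = 0.27), without metaphyseal replicate 2 (0.0747), without the library block (0.306) or with the DESeq2 Wald test (0.69). Ece1 was not called without the block (0.0555) or with clusters (0.153), nor Ece2 without metaphyseal replicate 1 (0.11) or with a stricter gate (0.0727).

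Cycling cells, with 2 or more proliferation markers counted, made up 46, 33 and 14 of the mpEC-like cells. Ednrb was at 256, 228 and 84.0 CPM in cycling and 223, 194.8 and 157.7 in other mpEC-like cells. Apln was at 68.8, 65.1 and 235 against 90.1, 79.1 and 145.7, and Aplnr at 978, 911 and 386 against 1029.7, 1069.6 and 697. For Ednrb and Apln the metaphyseal libraries went one way and the Pdgfra-GFP library the other, with 5 and 14 UMIs behind its cycling values. Aplnr was lower in cycling cells of 3 of 3 libraries, and the difference was not tested.

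The remaining genes of the pathway were read from a list of 30. Of the other ligands, Edn2 had 5 UMIs in all cells and was not tested. Apela, which encodes a further ligand of Aplnr, had 0 UMIs in the 3 endothelial populations and 1, 0 and 34 UMIs in mural-like cells. A single cell held 26 of the 34, and without it the level there was 26.0 in place of 106.9 CPM. The mural-like to mpMSC-like difference was 3.82 ± 0.68 (adjusted p = 0.000163, edgeR's quasi-likelihood test). The test was not run without that cell. In mpMSC-like cells Apela was at 3.11, 4.88 and 3.91 CPM.

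Of the 9 processing and clearance genes, 5 were tested. Prcp, a carboxypeptidase known to trim apelin, was at 501.5 ± 24.6 CPM in mpEC-like, 243.5 ± 38.5 in bmEC-like and 146.1 ± 17.2 in aEC-like cells (SD, n = 3). It was the 1 gene of this list called in each endothelial comparison, at -1.81 ± 0.29 for aEC-like against mpEC-like cells (adjusted p = 6.53e-05, edgeR's quasi-likelihood test). Mme, which encodes neprilysin, a protease that degrades both peptides, was at 397 ± 96.6 CPM in dpMSC-like, 218 ± 78.1 in SC-like and 140.7 ± 59.3 in mpMSC-like cells and at 2.75 ± 3.12 in mpEC-like cells.

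All 19 genes of the G protein and effector list were tested. Arterial-like against metaphyseal-like cells had 2 higher and 2 lower, sinusoid-like against metaphyseal-like cells 4 and 3, and arterial-like against sinusoid-like cells 5 and 5. The shares of all genes tested that were called in these comparisons were 10.7, 13.8 and 19.8%. The list medians were 0.09, -0.04 and 0.13 on the log2 scale, beside -0.09, 0.01 and -0.09 over all genes tested. In the endothelium against mpMSC-like cells 14 of the list were higher and 2 lower, beside 44.7% of all genes tested (20.6% higher, 24.1% lower). The list median was 1.20 against -0.05 over all genes. In mural-like cells against the endothelium 1 was higher and 5 lower, beside 22.1% of all genes tested (11.2% higher, 10.9% lower). Nos3, at 0.11 CPM in mpMSC-like cells, could pass the low-count filter through the endothelium. The list was also chosen with earlier results of these data known. Its counts and medians are therefore no evidence about it as a set. Nos3, the endothelial nitric oxide synthase, was at 111.0 ± 21.3, 77.5 ± 14.6 and 28.4 ± 14.3 CPM in aEC-like, mpEC-like and bmEC-like cells (SD, n = 3). Rgs4, which shortens Gq and Gi signals, was at 199.0 ± 97.6 CPM in bmEC-like and 263 ± 49.8 in mural-like cells but 1.33 ± 0.72 in mpEC-like and 3.36 ± 4.01 in aEC-like cells. In mural-like against mpMSC-like cells 6 of the list were higher and 1 lower, beside 10.2% of all genes tested (5.19% higher, 5% lower). Rgs4 was at 4.92 ± 0.64 there (adjusted p = 1.13e-05, edgeR's quasi-likelihood test). In SC-like against mpMSC-like cells 1 was higher and 1 lower, in OB-like cells 5 and 5 and in dpMSC-like cells 7 and 3, beside 5.84, 38.9 and 23.2% of all genes tested.

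The genes whose levels ran most closely with a member were found over 33 sums of library and population, which share libraries, depth and cell suspension, by Pearson's r of log2(CPM + 10). Stmn2, Egfl8 and Lrrc3b were nearest to Edn1, at r of 0.983, 0.975 and 0.970, and Stmn2 was at 858 ± 131 CPM in aEC-like cells (SD, n = 3). Ephb1, Crmp1 and Cd40 were nearest to Ednrb, at 0.975, 0.963 and 0.953, with Cd40 at 70.7 ± 5.69 CPM in mpEC-like cells. Gm30648, 2610203C22Rik and Gm38832 were nearest to Apln, at 0.965, 0.953 and 0.945, and Klhl4, Rbfox3 and Ltc4s to Aplnr, at 0.980, 0.974 and 0.954. Notch3, Akr1c12 and 1500009L16Rik were nearest to Ednra, at 0.950, 0.950 and 0.948, with Notch3 at 686 ± 126 CPM in mural-like cells. These values describe likeness of pattern over the sums and nothing further.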

How the data were processed

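Three-prime droplet libraries (10x Genomics) of the 3 samples were aligned by the authors with STARsolo (STAR 2.7.3a) after trimming with fastp 0.20 to mm10 with Gencode M23 genes and the H2B-GFP sequence. The deposited matrices hold raw counts of UMIs per gene and barcode, unfiltered, in Matrix Market form with barcode and gene lists. A barcode was kept as a cell with 1500 or more genes (1000 or more in Pdgfra-GFP replicate 1) and with no more than 15% of UMIs mitochondrial and 30% ribosomal. A marker was counted in a cell at 10% or more of its 99.5th percentile, and a population was called from the number of its markers counted. Scrublet called 25, 18 and 176 cells as doublets, which were kept in the main values. These were 1.05, 0.895 and 1.56% of the cells, against 1.91, 1.61 and 9.06% expected from the cell numbers. Leaving out called doublets may thus leave others in, above all in the Pdgfra-GFP library.

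UMIs were summed over the cells of each library and population with at least 10 cells. Sums were tested with edgeR 4.0.16 (filterByExpr, TMM, glmQLFit, glmQLFTest, library as a block, threshold 0.05 after Benjamini-Hochberg adjustment), in R 4.3.3. The block follows from the populations of a library sharing a cell suspension. Deviations of sums from the population means correlated within libraries at 0.0232 or more (median 0.208, 135 pairs). Between libraries the median was -0.166. Taking deviations from population means by itself lowers that value, so it is no support for the block. The SE of an edgeR log2 fold change was derived from the fold change and the test statistic, and was not fitted separately. Populations were gated on the same cells that were tested, so marker genes are no result. DESeq2 1.42.0, other gates, clusters (scanpy 1.11.5, 2000 variable genes without the members, 30 components, resolution 3) and further alternatives are in the closing section. On simulated counts for 3 of the comparisons, 4-fold changes were called in 60% (arterial against metaphyseal endothelium, 11057 genes), 55.5% (septoclasts against mpMSC, 11012 genes) and 53.3% (mural cells against endothelium, 11028 genes). Unchanged genes called were 5, 0 and 10 in that order. The simulation gave every gene the same dispersion, used means over all populations and had no library effect. Its shares are therefore not the power reached in these data. Intervals are exact at 95%, Poisson for counts and binomial for shares.

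The genes named are the 8 members, the listed pathway genes and, for each member at 20 CPM or more in a population, the 3 genes nearest in pattern; those nearest to Ece1 are not reported here. The members, lists and gate thresholds were chosen with earlier results of these data known, and the osteoblast gate was set to 3 markers after member values had been seen.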

Additional observations from a re-analysis of the deposited data

Results flagged for a closer look

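Of 37 pairs of a member and a comparison with more than 3 UMIs in every library, 1 moved in opposite directions between the metaphyseal libraries and the Pdgfra-GFP library. Ednra was 9.35 CPM higher in septoclast-like than in mpMSC-like cells of the Pdgfra-GFP library, which held 242 septoclast-like cells. It differed by -3.23 CPM in metaphyseal replicate 1, from 10 UMIs in 21 septoclast-like cells, and by -40.5 CPM in metaphyseal replicate 2, from 4 UMIs in 14 cells. The difference between the libraries was not tested.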

How the results depend on the processing

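Over the 35 member differences called, 411 alternative values were computed, of which 371 kept direction and side of the threshold, 40 kept direction and lost the call, and 0 changed sign. In 17 of the 35 the call held under every alternative run. Values that changed sign were of differences not called: Apln between aEC-like and bmEC-like cells was 1.51 with clusters, and Ednra between SC-like and mpMSC-like cells was 0.39 with a stricter gate, 0.68 with clusters, 0.075 with at least 20 cells per sum and 0.20 without metaphyseal replicate 2, over a leave-one-out range of -0.62 to 0.20. The cause was not tested. The septoclast clusters held 1, 4 and 218 cells, so the Ednra value with clusters has septoclasts of the Pdgfra-GFP library alone. Depth limits Edn3, Ece2 and the mural-like and septoclast-like sums of the metaphyseal libraries.

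Without the library block, genes called were 717 in place of 1360 (arterial against metaphyseal endothelium), 778 in place of 1746 (sinusoidal against metaphyseal), 1566 in place of 2514 (arterial against sinusoidal), 308 in place of 741 (septoclast against mpMSC), 3057 in place of 4930 (osteoblast against mpMSC) and 1519 in place of 2944 (dpMSC against mpMSC), and members called in the last were 1 in place of 3. With at least 20 cells per sum they were 1768 in place of 2808 (mural against endothelium) and 685 in place of 1293 (mural against mpMSC), with 1 of 6 members tested called in the latter. With clusters the septoclast comparison, with septoclasts of the Pdgfra-GFP library alone, called 245 of 14184 genes tested. Members called with clusters were 2 of 7 in arterial against metaphyseal endothelium, beside 1023 of all genes. They were 2 of 7 in sinusoidal against metaphyseal endothelium, beside 1711. The DESeq2 Wald test called 2 members in sinusoidal against metaphyseal endothelium and 1 in mural against mpMSC, beside 1564 and 1209 of 12686 genes tested. It gave 715 higher and 481 lower genes in arterial against metaphyseal endothelium, where edgeR gave 659 and 701, and 1746 and 1082 in mural against endothelium, where edgeR gave 1419 and 1389.

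Leaving out 1 library at a time gave 596 to 1599 genes and 4 to 5 members (arterial against metaphyseal), 666 to 2716 and 2 to 4 (sinusoidal against metaphyseal), 1384 to 2663 and 3 to 4 (arterial against sinusoidal), 1852 to 2092 and 5 to 6 (mural against endothelium), 774 to 956 and 1 to 2 (mural against mpMSC), 262 to 496 and 0 to 1 (septoclast) and 1944 to 2187 and 1 to 2 (dpMSC). The lowest counts came without metaphyseal replicate 1 (596, 666 and 1944), without metaphyseal replicate 2 (1384 and 774) and without the Pdgfra-GFP library (1852 and 262), and the 2716 without the Pdgfra-GFP library. Genes tested were 12598, 13299 and 11917 without metaphyseal replicate 1, metaphyseal replicate 2 and the Pdgfra-GFP library. Members tested were 7, 6 and 6 in that order, so a lower count of members can also reflect a member not tested. Mean levels moved with clusters to 182 CPM (Edn1, aEC-like) and 126 CPM (Ednrb, mpEC-like). Ece1 was at 107 CPM in the septoclast clusters of the Pdgfra-GFP library, the only library with enough of these cells to be summed. In the arterial clusters Aplnr was at 85.4, 97.6 and 368 CPM and Apln at 23.6, 25.8 and 72.8 CPM. In the Pdgfra-GFP library Aplnr and Ednrb exceeded the metaphyseal-like clusters there (241 and 16.8 CPM, against 74.5 CPM for arterial Ednrb). Those metaphyseal-like clusters held only 29 cells of that library. Levels moved with a stricter gate to 262 CPM (Ednrb, mpEC-like) and 98.2 CPM (Ece1, SC-like). Mean shares after thinning were 26.9% (Edn1, aEC-like), 24.3% (Ednrb, mpEC-like), 15.1% (Apln, mpEC-like), 74.3 and 52.0% (Aplnr, mpEC-like and bmEC-like), 24.8 and 15.1% (Ednra, mural-like and dpMSC-like) and 44.9 and 13.4% (Ece1, aEC-like and SC-like).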

Other observations

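Endothelial cells that met no subtype call (157, 112 and 56 cells, libraries in the order used above) had Aplnr at 689, 743 and 451 CPM and Ece1 at 209, 237 and 196.8 CPM. Edn1 was at 58.4, 40.6 and 81.4 CPM and Ednrb at 44.9, 39.0 and 17.0 CPM. Edn1 was found in 9.55, 8.93 and 14.3% of these cells, with up to 8 UMIs in 1 cell.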
